A study of Saccharomyces cerevisiae with 7 samples.

Results

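The small protein genes described here are the 118 protein-coding genes of budding yeast, Saccharomyces cerevisiae, whose coding region is 300 nt or less, that is, 100 codons or less with the stop codon counted. They were taken from 3000 protein-coding genes in the authors' transcript annotation by adding the lengths of the coding segments of each gene. The 23 genes as short as these whose names start with RPL, RPS, RPP or MRP, most of them for ribosomal proteins, were left out. RSM19 and RTC6 also encode mitochondrial ribosomal proteins but do not carry such a name, so they are among the 118.

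The annotation accompanies a study of RNA secondary structure, in which polyadenylated RNA from log-phase cells grown at 23 °C was folded in vitro in 10 mM magnesium and 100 mM KCl and cut for 15 min with a nuclease. The groups are 4 libraries cut with RNase V1, which cleaves paired RNA, and 3 libraries cut with nuclease S1 (called RNase S1 in the labels), which cleaves unpaired RNA. Strain and genotype are not given in the labels. Values per library were not analysed here: the nucleases were not compared, the depth is unknown, and no number below carries a replicate error. Lengths are those of the annotation, in nucleotides. Intervals on shares are Wilson intervals at 95% and hold no more than the counting error over genes. Genes are not replicates, and no test over genes was made.

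A eukaryotic mRNA carries an untranslated region (UTR) on each side of its coding region. The 5' UTR is the stretch the small ribosomal subunit scans to reach the start codon, and the 3' UTR holds sites for RNA-binding proteins and the signals that set its end. Yeast proteins of this size are often the smallest subunits of larger machines, such as the respiratory complexes, the mitochondrial import channels, the Sm and LSm rings of RNA processing, RNA polymerases and the kinetochore. Others act alone as metallothioneins, copper carriers, ubiquitin-like modifiers or inhibitors of an enzyme.

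Coding regions of the 118 genes ran from 78 to 300 nt, with a median of 237 nt. The shortest was YOR302W (78 nt, 25 residues), the upstream reading frame of CPA1, followed by OST4, an oligosaccharyltransferase subunit (111 nt), the uncharacterised YDR003W-A and the proton pump regulator PMP1 (123 nt each), and PMP2, the paralog of PMP1 (132 nt). NHP6B, URM1 and SGF11 were just inside the limit at 300 nt. ATP17, SMT3, MVB12 and SMD3 were the nearest genes outside it, at 306 nt, apart from the ribosomal protein genes RPL36A and RPL36B, whose coding regions are 3 nt above the limit. The genes lay on 15 of the 16 nuclear chromosomes, 56 on the plus and 62 on the minus strand. In 81 of 118 the systematic name ended in a hyphen and a letter (68.6%), a form given to reading frames added after the first numbering of the genome, against 28 of 2882 other mRNAs (0.972%). The product was uncharacterised in the R64 reference annotation, or the gene was missing there, for 16 of the 118 (13.6%), against 92 of the 2882 others (3.19%).

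UTRs made up a large part of these mRNAs. Both UTRs were listed for 102 of 118 genes. In those, the UTRs together took a median of 44.4% of the mature mRNA (quartiles 36.5 and 54.0%), against 13.9% in other mRNAs. They took 50% or more in 34 of 102 genes (33.3%), where 2.54% of all mRNAs did. This share follows from the rule, since the coding region is part of its denominator, the mature mRNA. The summed length of both UTRs had a median of 187 nt (quartiles 135 and 263 nt), against 172 nt (121 and 251 nt) in the others. The coding regions had medians of 235.5 and 1110 nt. A whole mRNA with both UTRs had a median length of 419.5 nt, against 1319 nt.

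**Figure D1:**
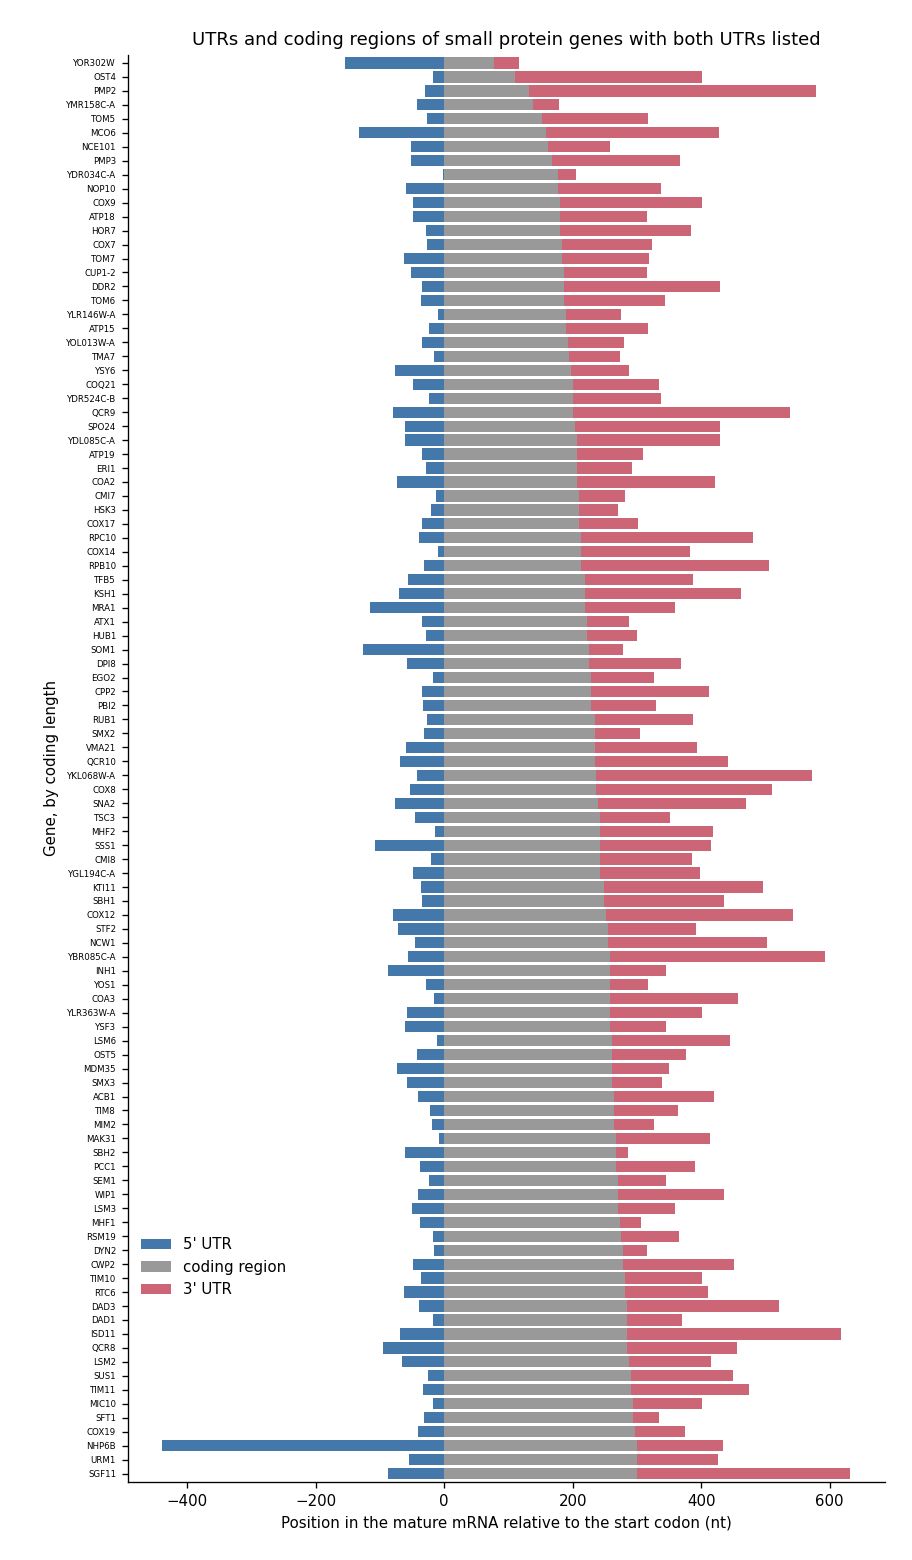
Length of the 5' UTR, coding region and 3' UTR (nt, x axis, 0 at the start codon) in each of the 102 small protein genes with both UTRs listed, ordered by coding length. The 3' UTR is the longer of the UTRs in 96 genes, and the 439 nt 5' UTR of NHP6B stands out to the left.

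PMP2 had the highest UTR share, 78.3%, where 30 nt of 5' UTR and 447 nt of 3' UTR flanked a coding region of 132 nt. OST4 followed with 73.5%, from UTRs of 18 and 290 nt, and MCO6, a mitochondrial outer membrane protein, with 71.6%, from 132 and 269 nt. The lowest shares were those of YDR034C-A, a reading frame inside a Ty1 long terminal repeat (14.5%), DYN2, the dynein light chain (16.0%), and SFT1, a Golgi SNARE (19.7%). In DYN2 the 5' UTR had 16 nt and the 3' UTR 37 nt. The 3' UTR alone was longer than the coding region in 23 of 114 genes (20.2%), where 1.11% of all mRNAs had such a 3' UTR. Like the UTR share, this contrast follows in large part from the rule, which keeps the coding region short.

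**Figure D2:**
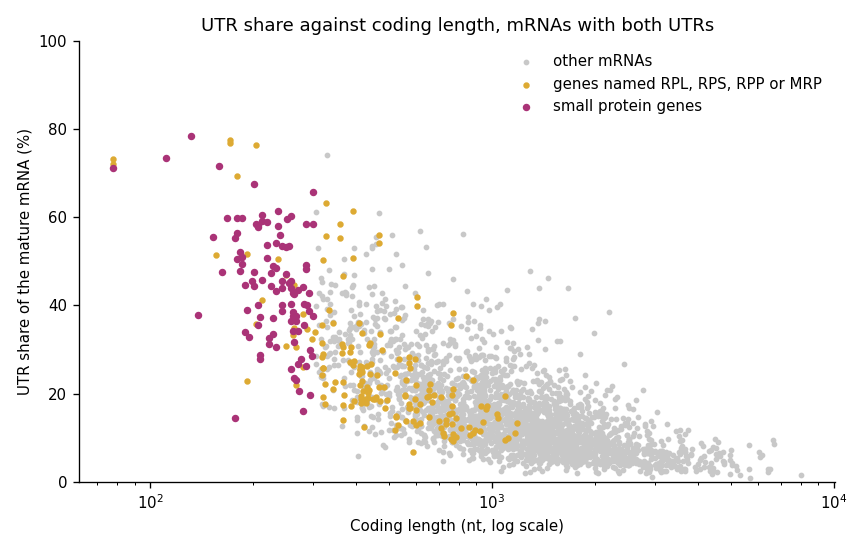
UTR share of the mature mRNA (%, y axis) against coding length (nt, log scale, x axis) for mRNAs with both UTRs, with small protein genes, genes named RPL, RPS, RPP or MRP, and all others in separate colours. The share falls with coding length across all mRNAs, and the small protein genes, with a median of 44.4%, form the upper left end of that band.

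The 3' UTRs of small protein genes were long and their 5' UTRs short. For the 3' UTR, 114 small protein genes had a median of 140.5 nt with quartiles of 89.3 and 197 nt, and other mRNAs one of 105 nt with quartiles of 71 and 152 nt. Of these 114 genes, 75 were above 105 nt (65.8%, interval 56.7 to 73.9%). For the 5' UTR, 102 genes had a median of 40 nt with quartiles of 26.5 and 60.8 nt, other mRNAs one of 51 nt with quartiles of 30 and 96 nt, and 64 of the 102 were below 51 nt (62.7%, 53.1 to 71.5%). The 3' UTR exceeded the 5' UTR in 96 of 102 genes (94.1%, 87.8 to 97.3%), where it did so in 75.1% of all mRNAs. The 6 exceptions were MHF1, NHP6B, SBH2, SOM1, YMR158C-A and YOR302W.

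Against mRNAs of the next size, the 5' end did not stand apart. The 398 mRNAs with coding regions of 306 to 600 nt and no name in RPL, RPS, RPP or MRP were compared. They had a median 5' UTR of 39 nt, 1 nt below that of the small protein genes. For 3' UTRs their median was 117.5 nt, and 218 of 382 exceeded 105 nt (57.1%). The 3' UTR was longer than the 5' UTR in 298 of the 349 with both (85.4%), nearer to the small protein genes than the 75.1% of all mRNAs. Across size classes, the median 5' UTR was 38 nt at 306 to 450 nt of coding length and rose to 68 nt above 1500 nt. The median 3' UTR was 120 nt at 306 to 450 nt, 116 nt at 453 to 600 nt and 102 to 106 nt in the longer classes. Within the 118 genes, coding length had almost no rank correlation with 5' UTR length (rho 0.03 by Spearman, r 0.01 by Pearson on log2 values, 102 genes) or with 3' UTR length (rho -0.07, r -0.01, 114 genes), and the UTR lengths were weakly correlated with each other (rho 0.23, r 0.23, 102 genes). Both ends of an mRNA come from the same annotation, so these values are a description.

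**Figure D3:**
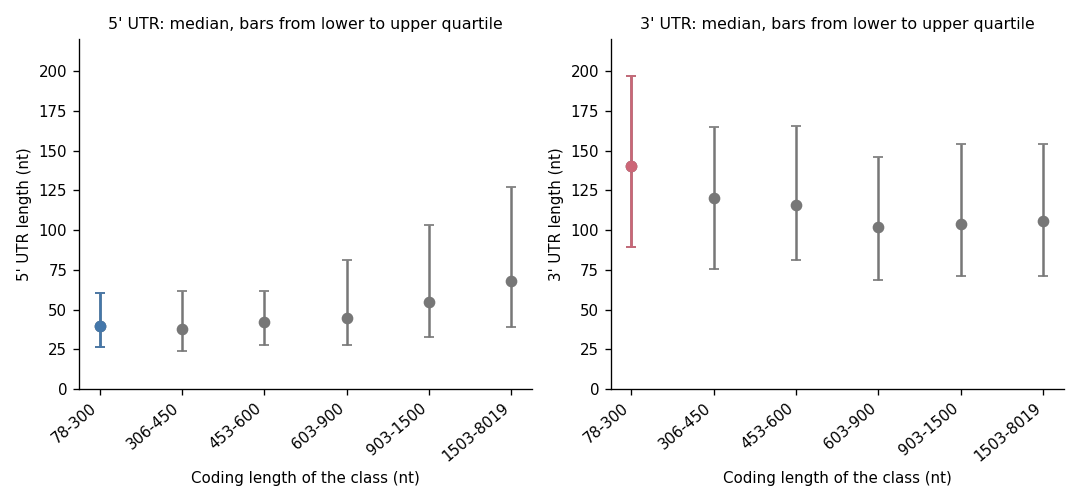
Median length (nt) of 5' UTRs (left) and 3' UTRs (right) by class of coding length (nt, x axis), with bars from the lower to the upper quartile. The first class, coloured, is the small protein genes; the other classes leave out genes named RPL, RPS, RPP or MRP. The median 5' UTR is 40 nt in the first class and 38 nt in the second, and the median 3' UTR is 140.5 and 120 nt.

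The longest 5' UTRs belonged to NHP6B, which encodes a high-mobility-group protein that binds nucleosomes (439 nt, chromosome 2 at 426484 to 426922, minus strand), YOR302W (154 nt) and MCO6 (132 nt). The shortest belonged to YDR034C-A (2 nt), MAK31, a subunit of an N-terminal acetyltransferase (8 nt), and COX14, an assembly factor of cytochrome c oxidase, and YLR146W-A (10 nt each). At the 3' end the longest were those of PMP2 (447 nt, chromosome 5 at 122351 to 122797, minus strand), QCR9, a subunit of the cytochrome bc1 complex (338 nt), and the uncharacterised YKL068W-A (335 nt). SBH2, a translocon subunit (19 nt), YDR034C-A (28 nt) and MHF1, a histone-fold protein (34 nt), had the shortest. Positions not attributed to R64 are the annotation's own, and its genome build is unknown here.

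The start codons of the 4 genes with the shortest 5' UTRs are shown because those leaders leave few bases before the ATG. The sequences run from 6 bases before the start codon to 3 after it, with the ATG in capitals, from the RefSeq R64 genome by gene name. The annotation places the first base of the YDR034C-A mRNA 2 nt before its ATG, so the first 4 bases of its line precede the listed transcript.
YDR034C-A: cccataATGgaa
MAK31: agcgtcATGgac
COX14: atagtcATGtcc
YLR146W-A: gtagccATGgac
Yeast start codons are most often preceded by an A 3 bases upstream. Of all small protein genes found in R64, an A stood there in 74 of 117 (63.2%, 54.2 to 71.4%), against 66.3% of other mRNAs. TAA was the stop codon of 50.4% of the coding regions, against 48.4% in other mRNAs.

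The 118 genes were described by role with 12 gene lists, each of which also holds longer genes of the same machines. The lists covered 82 of the 118 genes, and 36 were on none. For each list, the median lengths of its small members are given beside those of its longer members, with the number of small members whose 3' UTR was above the 105 nt median of other mRNAs.

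Small subunits of the respiratory chain and ATP synthase, which make ATP in the mitochondrial inner membrane, had long 3' UTRs. The median was 170 nt in the 13 small genes, 11 of them above 105 nt, from 88 nt in INH1, an inhibitor of ATP synthase, to 338 nt in QCR9. The 27 longer genes of the same complexes had a median of 231 nt, 23 of them above 105 nt, so the small subunits did not have the longer 3' UTRs here. In the bc1 complex, QCR8, QCR9 and QCR10 had 170, 338 and 207 nt. In cytochrome c oxidase, COX7, COX8, COX9 and COX12 had 141, 273, 221 and 291 nt. In ATP synthase, TIM11, ATP18, ATP15 and ATP19 had 184, 136, 129 and 103 nt, against 405 nt in ATP17, whose coding region is 6 nt above the limit. The 5' UTRs of this group ran from 23 nt in ATP15 to 95 nt in QCR8, with a median of 53 nt against 64.5 nt in the longer genes.

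Assembly factors and twin CX9C proteins, the small disulfide-bonded proteins of the intermembrane space, had a median 3' UTR of 156.5 nt in 8 genes, against 130 nt in 19 longer ones. Values ran from 78 nt in COX19 and 91 nt in COX17, the copper chaperone of cytochrome c oxidase, to 332 nt in ISD11, a subunit of the iron-sulfur cluster machinery. Components of the import channels and of the MICOS complex were more even: TOM5, TOM6 and TOM7 of the outer membrane channel had 164, 157 and 136 nt, and the intermembrane-space chaperones TIM10, TIM9 and TIM8 had 120, 117 and 100 nt. Their median 3' UTR of 118.5 nt was below the 132 nt of 24 longer genes, and their median 5' UTR of 26 nt below 48.5 nt.

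All 7 small genes of RNA polymerase, general transcription and chromatin had 3' UTRs above 105 nt, with a median of 168 nt against 111 nt in the 42 longer genes, of which 23 were above. RPB10 and RPC10, subunits shared by the nuclear RNA polymerases, had 293 and 268 nt. SGF11 and SUS1 of the SAGA deubiquitinating module had 332 and 159 nt, and TFB5, a subunit of TFIIH, had 168 nt. By comparison, 2 of 8 Sm, LSm and splicing proteins were above 105 nt, LSM6 with 184 nt and LSM2 with 128 nt, and the group's median was 86 nt against 77 nt in 9 longer genes. The lowest median belonged to the list of kinetochore, histone-fold and dynein light chain proteins, with a median 3' UTR of 60 nt and a median 5' UTR of 19 nt, where only DAD3, a DASH complex subunit (236 nt), and MHF2 (176 nt) were above 105 nt. The longer genes of that list numbered 2, too few to set beside them.

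Among membrane proteins, 4 of 5 small genes of the proton pump list had 3' UTRs above 105 nt, and the median was 199 nt against 112.5 nt in 18 longer genes. PMP2 and PMP3, plasma membrane proteolipids, had 447 and 199 nt, SNA2 229 nt and VMA21, an assembly factor of the vacuolar ATPase, 160 nt, while VMA9, a subunit of that ATPase, had 104 nt. Of 11 secretory pathway genes, 7 were above 105 nt (median 115 nt), against 13 of 41 longer ones (median 90 nt). OST4 had 290 nt, KSH1 243 nt and SPC1, a signal peptidase subunit, 213 nt, while YOS1, a protein of transport vesicles, had 60 nt and SBH2 19 nt.

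The remaining lists held single proteins as well as subunits of complexes. The small stress and metal-binding proteins had a median 3' UTR of 129 nt in 7 genes against 109 nt in 15 longer ones, from 66 nt in ATX1, the copper carrier of the cytosol, to 244 nt in the stress-response protein DDR2. CUP1-2, the copper metallothionein, was listed with 129 nt. It is one of several near-identical tandem copies, so its UTRs are uncertain. The ubiquitin-like modifiers RUB1, URM1 and HUB1 had 153, 126 and 78 nt, and SEM1, a proteasome lid subunit on the same list, 76 nt. In the translation and RNA modification list the 3' UTR was 160 nt for NOP10, a component of H/ACA snoRNPs, 248 nt for KTI11 (also known as DPH3) and 123 nt for PCC1, a subunit of the KEOPS complex. ACB1, the acyl-CoA-binding protein, had 156 nt. The 16 genes uncharacterised in R64 or absent from it, YOR302W and YOL013W-A among them, had 3' UTRs with a median of 155 nt. The other small protein genes had 137 nt, and the median 5' UTR was 43 nt against 39 nt.

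The 5' UTRs of the same lists lay closer together. Apart from NHP6B with 439 nt, the longest on any list was that of SSS1, the gamma subunit of the translocon, with 107 nt. The shortest was that of COX14 with 10 nt, followed by LSM6 with 11 nt and MHF2 with 14 nt. On the assembly list COA2 and MDM35 had the longest (74 nt each), on the import list TOM7 (63 nt) with MIC10 the shortest (18 nt), and among Sm and LSm proteins LSM2 (65 nt). SUS1 had the shortest of the transcription genes (25 nt), OST4 of the secretory genes (18 nt), SEM1 of the ubiquitin-like list (23 nt, up to 54 nt in URM1), and TMA7 of the stress list (16 nt, up to 72 nt in STF2). The remaining ends were SNA2 with 76 nt against PMP2 with 30 nt among pump genes, DAD3 with 39 nt on the kinetochore list, and NOP10 with 59 nt against KTI11 with 36 nt. The low 3' UTR values not given above were 62 nt in MIM2 on the import list and 71 nt in SMX2 among Sm proteins.

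**Figure D4:**
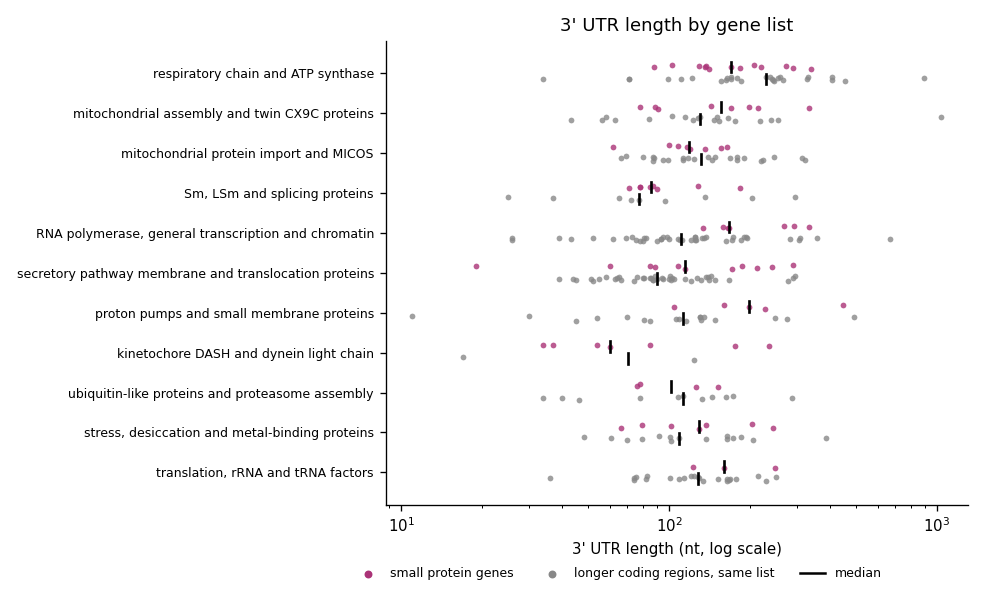
3' UTR length (nt, log scale, x axis) of the genes on each role list with at least 3 small protein genes. Small protein genes and longer genes of the same list are in separate colours, and black ticks mark the median of each group. All 7 small transcription genes have 3' UTRs above 105 nt, the median of other mRNAs, and 5 of the 7 small kinetochore genes have shorter ones.

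Of the 118 genes, 16 had no 5' UTR listed (13.6%), where 10.7% of all mRNAs had none. They were PMP1, YDR003W-A, DAD4, CMC4, VMA9, ATG44, NBL1, YBL008W-A, YPR170W-B, TIM9, YCR024C-B, YGR161W-C, LSM5, NHP6A, SPC1 and SME1. In 4 of them, PMP1, NBL1, YBL008W-A and SME1, no 3' UTR was listed either. A missing UTR in the annotation is a missing entry and was not read as an mRNA that starts at its ATG.

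Introns were more frequent than in other mRNAs. They interrupted 18 of the 118 genes (15.3%, 9.87 to 22.8%), where 6.63% of all mRNAs had one. Without genes named RPL, RPS, RPP or MRP, 91 of 2697 other mRNAs had one (3.37%). In the 306 to 600 nt class it was 37 of 398 (9.30%, 6.82 to 12.6%), an interval that overlaps that of the small genes. SUS1, VMA9, DYN2 and YOS1 each had 2 introns, as only 7 of all 3000 mRNAs did. The 22 introns measured 62 to 213 nt, from ATG44, a mitochondrial fission protein, to QCR9. Their median was 96 nt, against 96.5 nt in other mRNAs without ribosomal names. In genes named RPL, RPS, RPP or MRP the median was 407.5 nt.

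In most of these genes the first intron sat near the start codon. A median of 34.5 coding nt preceded the first intron, and in 12 of 18 genes it was less than 50 nt. The rule keeps the coding region short and so limits this distance in advance. The distance was not compared with that in other mRNAs, so it is not shown to be particular to small genes. QCR9 and YSF3, a subunit of the SF3b splicing complex, were interrupted directly after the ATG, QCR10 after 6 nt, ATG44 after 9 nt and VMA9 after 11 nt. At the other end, YPR170W-B and RUB1 had 149 coding nt before theirs. The remaining genes with an intron were NCE101, SFT1, PCC1, CMC4, MRA1, LSM2, OST5 and NBL1, and the interrupted genes fell on 9 of the 12 role lists. All 22 intron lengths equalled those in R64.

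**Figure D5:**
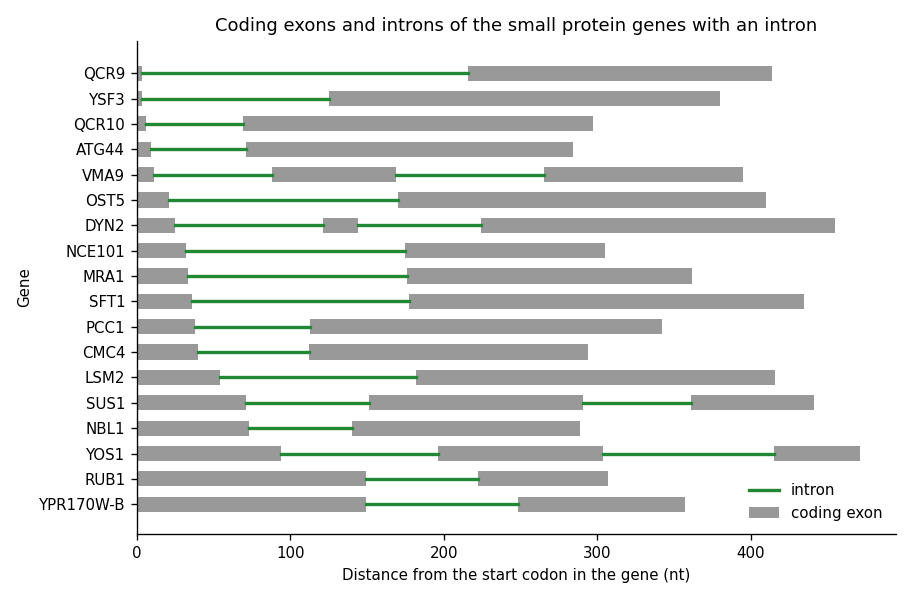
Coding segments (boxes) and introns (lines) of the 18 small protein genes with introns, in nt from the start codon (x axis), ordered by the position of the first intron. In 12 genes the first intron begins within 50 coding nt of the start.

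The 5' splice sites are shown because small introns of several genes depart from the usual yeast sequence. Each line runs from 3 bases of exon into the intron, with the first 6 intron bases in capitals, read from R64 by gene name. The first 2 are the usual sequence GTATGT.
YSF3, chr14:366036-366041, plus strand: atgGTATGTtacgtt
SUS1 intron 2, chr2:462430-462435, plus strand: tagGTATGTgaatat
SUS1 intron 1, chr2:462210-462215, plus strand: actGTATGAtaaaat
CMC4, chr13:652842-652847, minus strand: aagGTTTGTaatatt
OST5, chr7:73132-73137, minus strand: tacGTACGTtgcctg
PCC1, chr11:625902-625907, plus strand: attGTAAGTagaagc
QCR10, chr8:107832-107837, plus strand: gcgGTAAGTatccta
ATG44, chr9:47699-47704, plus strand: ttaGTAAGTacccaa
The usual GTATGT opened 16 of the 22 introns, and the other 6 are all listed above. In other mRNAs it opened 144 of 184 (78.3%). In YSF3 the capitals follow the start codon itself. The branch point motif TACTAAC, where the lariat forms, was found letter for letter on the sense strand of 20 of 22 introns, against 160 of 184 (87.0%). The exceptions are the first intron of SUS1 and that of CMC4, whose closest matches are shown with the 7 letters in capitals.
SUS1 intron 1: tacttTACTGACtattc
CMC4: cttttCACTAACgtttt
SUS1 intron 1 and CMC4 are therefore the introns of this set with both an unusual 5' splice site and an unusual branch sequence.

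NHP6B, the gene with the longest 5' UTR, was listed without an intron. Its 439 nt 5' UTR reached past a GTATGT 384 nt and a TACTAAC 46 nt before the start codon in R64, shown because the pair has the letters of a 5' splice site and a branch point.
NHP6B, chr2:426868-426873, minus strand: gcaaaGTATGTaaggcg
NHP6B, chr2:426529-426535, minus strand: aagagTACTAACtaatt
It was the only one of 102 small protein genes whose 5' UTR reached such a pair, in that order on the sense strand, against 16 of 2577 others. Whether NHP6B mRNA is spliced there cannot be read from the annotation. The same 5' UTR held 9 of the 22 upstream ATGs found in all small protein genes, 8 of them less than 384 nt from the start codon.

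Upstream ATGs were present in 14 of 101 5' UTRs, NHP6B included (13.9%), where 15.2% of all mRNAs had one. Of the 22 ATGs, 17 opened a reading frame that ended within the 5' UTR, among them one that starts at the first base of the listed VMA21 mRNA. In CMI8 the upstream ATG was in frame 3 nt before the start codon and would lengthen the protein, and in NCE101, DPI8, MHF1 and DAD1 the frame ran past the start codon in another phase.

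The 3' UTRs of the mitochondrial genes often held a match to one sequence motif. TGTANATA is the core of the site bound by Puf3, an RNA-binding protein of the Pumilio family that binds many mRNAs for mitochondrial proteins. The 3' UTR was read from R64 by gene name, over the length the annotation lists, and searched on the sense strand. The motif occurred in 27 of 113 small protein genes (23.9%, 17.0 to 32.5%), where 14.6% of all mRNAs held it. On the 3 mitochondrial lists it was in 18 of 29 (62.1%, 44.0 to 77.3%), and among the other small protein genes in 9 of 84 (10.7%, 5.74 to 19.1%). On the opposite strand the counts were 5 of 29 and 12 of 84. The median 3' UTR was 141 nt on the mitochondrial lists and 140 nt off them, and 22 of 29 against 53 of 85 were above 105 nt. The part of UTR length in the motif counts was not tested.

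The motif was not particular to small genes. Of the longer genes on the same lists, 33 of 70 held it (47.1%), within the interval of the small ones. It was in 7 of 8 small import and MICOS genes, in 6 of 8 assembly genes and in 5 of 13 respiratory chain and ATP synthase genes. By the R64 gene text, 18 of 35 small genes described as mitochondrial held it (51.4%) against 9 of 78 others (11.5%). Among all mRNAs outside the set, the short ribosomal ones included, the shares were 35.8% and 9.82%. The sites below are shown as examples, from genes with more than 1 match and from the outer membrane channel, the intermembrane space, MICOS and the respiratory chain. RSM19 is on none of the 3 lists, though its R64 text names the mitochondrion, and COX17 is on the assembly list, though its R64 text does not. The match is in capitals.
RSM19, chr14:695035-695042, minus strand: tctagTGTATATAgattt
RSM19, chr14:695007-695014, minus strand: tatcaTGTAAATAagatc
RSM19, chr14:694979-694986, minus strand: cgggcTGTATATAtatat
COX17, chr12:131166-131173, minus strand: tttctTGTATATAtaaga
COX17, chr12:131121-131128, minus strand: ctaccTGTAAATAtgtgc
TOM6, chr15:414077-414084, plus strand: ttaccTGTATATAtattg
TOM6, chr15:414160-414167, plus strand: agcagTGTATATAatgga
TOM5, chr16:797836-797843, plus strand: agacgTGTAAATAttttt
TIM10, chr8:115509-115516, minus strand: tatccTGTATATAcaagt
MIC10, chr3:23951-23958, minus strand: ctataTGTATATAtttac
COX8, chr12:909690-909697, minus strand: atgtgTGTACATAgcgtg
RSM19 had 3 matches in a 3' UTR of 90 nt, at 10, 38 and 66 nt after the stop codon. COX17 had matches at 32 and 77 nt in a 3' UTR of 91 nt, and TOM6 at 40 and 123 nt in 157 nt. COA3 and QCR9 also had 2 each. Over all 33 matches the median distance from the stop codon was 72 nt. A match is a description of letters and does not show binding.

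Neighbouring mRNAs often overlapped these genes at the 3' end. In 29 of 118 the mRNA shared bases with another listed mRNA (24.6%, 17.7 to 33.1%), where 16.8% of all mRNAs did. In the 306 to 600 nt class it was also 24.6% (98 of 398), so the small protein genes did not differ from mRNAs of the next size. The 29 overlaps were 26 with a convergent neighbour on the opposite strand, 3 with a neighbour on the same strand and none with a divergent one. Their length ran from 3 to 200 nt, with a median of 74 nt. The 257 overlaps of other mRNAs were divided much alike, 224 convergent, 24 on the same strand and 9 divergent, with a median of 75 nt. Where the genes next to each other in R64 were both listed and convergent, 25 of 35 pairs overlapped (71.4%, 54.9 to 83.7%), against 197 of 378 pairs without a small protein gene (52.1%, 47.1 to 57.1%), and these intervals overlap. Divergent neighbours were apart in all 33 such pairs (interval for overlap 0 to 10.4%). Of 396 divergent pairs without a small protein gene, 8 overlapped (2.02%), a share within that interval. The median distance between the mRNA ends was 253 nt in the 33 pairs and 390.5 nt in the 396.

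The longest overlap was that of SMX2, the SmG protein, with GNA1, a glucosamine-phosphate acetyltransferase, over 200 nt on chromosome 6 at 103798 to 103997. It covered 129 nt of the SMX2 coding region and 21 nt of that of GNA1. HOR7, a stress-response protein, and MLO1 shared 190 nt on chromosome 13 at 774945 to 775134, and RPC10 and DCD1, a dCMP deaminase, shared 163 nt on chromosome 8 at 387554 to 387716. Next came LSM6 with ATP17 (157 nt) and SUS1 with CYC8 (156 nt). In 7 of the 29 pairs the small gene's mRNA reached into the neighbour's coding region, and in 4, those of SMX2, SFT1, SBH2 and YDR003W-A, the neighbour's mRNA reached into the small gene's. The other small protein genes with a convergent overlap were DAD3, DPI8, EGO2, HUB1, LSM3, LSM5, NHP6A, OST4, QCR9, RTC6, SPC1, SPO24, STF2, VMA21, WIP1, YDL085C-A, YGL194C-A, YLR146W-A and YOL013W-A. Among these, QCR9 met TIM13, a mitochondrial import chaperone, over 59 nt, and LSM6 and YLR146W-A met genes just above the length limit, ATP17 and SMD3. The same-strand overlaps were MRA1 with MRX21 (74 nt), YDR003W-A with RCR2 (39 nt) and INH1 with AIT1 (14 nt). A nuclease cut in bases shared by opposite strands can be given to one mRNA only where reads keep their strand.

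Some small protein genes neighboured non-coding genes. CMC4 shared 82 nt with the snoRNA snR11, VMA9 18 nt with snR43 and COQ21 9 nt with LSR1, the U2 spliceosomal RNA, each on the opposite strand. With non-coding transcripts counted, 32 small protein genes overlapped another transcript (27.1%), against 16.7% of other mRNAs. With mRNAs alone the shares were 24.6 and 16.4%. The listed pairs of R64 neighbours with a small protein gene were 35 convergent, 33 divergent and 59 on the same strand. Among them the only pair of small protein genes was PMP1 and YCR024C-B. Small protein genes were 118 of the 3000 listed mRNAs, and whether this count is low was not tested.

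YOR302W is an upstream reading frame and not a gene of its own mRNA in the usual sense: it encodes the arginine attenuator peptide, which controls translation of CPA1, a subunit of carbamoyl phosphate synthetase. The annotation listed it as a transcript of its own on chromosome 15 at 882609 to 882878, with UTRs of 154 nt (5') and 38 nt (3'). CPA1 was listed from 882897, the first base of its coding region, with no 5' UTR. The listed transcripts were 18 nt apart and the coding regions 56 nt apart, and the first base listed for YOR302W lay 288 nt before the CPA1 start codon. Its listed UTRs and coding region therefore lie in the stretch that precedes the CPA1 start codon.

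PMP1 and YCR024C-B were listed next to each other on the minus strand of chromosome 3. PMP1 had a coding region at 162941 to 163063 with no UTR on either side. YCR024C-B was listed downstream at 162423 to 162861, with no 5' UTR and a 3' UTR of 172 nt, and its coding region began 79 nt after that of PMP1 ended. From the PMP1 stop codon to the end of YCR024C-B was 518 nt. PMP2, the paralog of PMP1, had a 3' UTR of 447 nt.

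Pairs of small protein genes with closely similar coding regions were few, and their UTR lengths were close in some pairs and far apart in others. Related genes below the limit used here, or of unlike length, were not sought, so paralogs as a whole were not counted. Of 4003 pairs of small protein genes compared, 4 had coding regions with at least 60% identical nucleotides, where the median was 46.6%. PMP1 and PMP2 were 85.6% identical, and PMP1 had no UTRs listed. NHP6A and NHP6B were 71.7% identical. The 5' UTR of NHP6B had 439 nt and that of NHP6A was not listed, while the 3' UTRs had 134 and 166 nt. SBH1 and SBH2, alternative beta subunits of the translocon, were 62.4% identical, with 3' UTRs of 187 and 19 nt and 5' UTRs of 34 and 61 nt. HOR7 and DDR2 were 62.6% identical, with 5' UTRs of 28 and 34 nt and 3' UTRs of 204 and 244 nt.

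The annotation held 140 of 330 R64 protein-coding genes of 300 nt or less (42.4%, 37.2 to 47.8%), ribosomal names included. It held 49.2% of those over 300 and up to 450 nt, 60.8% of those up to 900 nt and 47.0% of longer ones. Values above describe the small protein genes that were listed, and genes not listed were not analysed here.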

How the data were processed

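The deposited file used here is the authors' transcript annotation of budding yeast. Its values are genome positions counted from 1, in no measured unit, as deposited by the authors; it lists 3196 transcripts, 3000 of them mRNAs, with exon and UTR ends. The build, the aligner and the method that set UTR ends are not given in the sources used. Per the labels, 7 libraries were made (4 with RNase V1, 3 with nuclease S1), with fragments of about 200 nt. The titles speak of total RNA and the source field of polyA RNA. Libraries were grouped by the nuclease in their labels and were not compared, since values per library were not analysed here.

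Coding length was the sum of exon lengths, and an intron was a gap of at least 10 nt between exons. Genes were described by medians, quartiles, counts and Wilson intervals, and correlations by Spearman's rho and Pearson's r of log2 lengths, with Python 3.11.15, pandas 2.3.3, numpy 2.4.6, scipy 1.17.1, matplotlib 3.10.9 and Biopython 1.88. Symbols, descriptions, neighbours and sequences came from RefSeq R64 by gene name. R64 held 2999 of the 3000 mRNAs and 117 of the 118 small protein genes, all but YOL013W-A. Coding length equalled that in R64 in 2979 of 2999, and in all 117. Positions were identical for only 16 small protein genes, so coordinates of the annotation and of R64 were not mixed: those beside sequences are R64's, the others are the annotation's. Coding identity was computed by global alignment of nucleotides, in place of the residue identity first planned, for pairs whose shorter length was at least 80% of the longer. Upstream ATGs and motifs were counted in R64 sequence over the listed UTR lengths.

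Named genes are the extremes of coding length, UTR length and UTR share, the ends of each list, genes with introns, overlaps or no 5' UTR, those next to the limit, and similar pairs. Genes singled out beyond these, for their role or their motif matches, were picked with their values known. The members and lists were chosen with earlier results of these data known. The code was checked on a made-up annotation with known lengths, introns and overlaps. Alternatives changed the length limit, the ribosomal names, the UTR filters, the intron gap, the overlap minimum and the comparison set.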

Additional observations from a re-analysis of the deposited data

How the results depend on the processing

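Differences are small protein genes minus other mRNAs. The 3' UTR difference in medians was 35.5 nt and ran from 23 to 40 nt under all alternatives run. The 5' UTR difference of -11 nt ran from -15 to -10 nt, with 1 exception. Against mRNAs without ribosomal names and with coding regions over 300 and up to 600 nt, it was 1 nt. The overlap difference was 8.13 percentage points and 6.10 to 10.4 points elsewhere, but -0.0468 points against that size class. The difference in median UTR share, 30.5 points, became 17.8 points against that class and 35.0 points with a limit of 240 nt, which left 62 genes; the share is set by coding length. The intron difference of 8.97 points ran from 5.96 to 15.4 points. The comparisons without ribosomal names, within the size class, without YOR302W and YOL013W-A, and by mitochondrial gene text were chosen after seeing the data.

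No paired analysis was possible because values per library were not analysed here, and the fit of RNase V1 against nuclease S1, with or without a replicate block, was not run. The annotation gives one length per UTR, so the spread of ends within a gene and any error of the listed ends are unknown. The intervals do not cover either. No depth stands behind these values.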

Other observations

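Across the 102 small protein genes with both UTRs, the mRNAs held 5081 nt of 5' UTR, 23607 nt of coding sequence and 15561 nt of 3' UTR, so 46.6% of their summed bases were untranslated. The 23 genes of the same size named RPL, RPS, RPP or MRP had a lower median 5' UTR of 23 nt and a median 3' UTR of 122 nt. Their median UTR share was 41.2%, and 12 of them had an intron (52.2%).

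Small protein genes with a hyphenated systematic name had a median 5' UTR of 39 nt and a median 3' UTR of 138 nt in 81 genes, against 49.5 and 147 nt in the 37 others. A 5' UTR was missing in 13 of 81 and in 3 of 37. It was also missing in 5 of the 16 genes uncharacterised in R64 or absent from it, against 11 of the 102 others. By intron, it was missing in 5 of 18 genes with one against 11 of 100 without. These splits were chosen after the values were seen, and no test was made of them.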
